A study of Mus musculus with 2 samples.

Results

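Barcodes rich in haemoglobin RNA were taken from both libraries of a single-cell RNA sequencing study of mouse medulloblastoma. Members were chosen by their measured haemoglobin and mitochondrial UMIs: a member was any listed barcode with at least 20% of its UMIs (unique molecular identifiers, the counted RNA molecules) from Hba-a1, Hba-a2, Hbb-bs and Hbb-bt and at most 10% from mitochondrial genes, with no minimum on detected genes. The rule found 416 members among 27136 listed barcodes. All mice had the genotype Math1-Cre;SmoM2fl/fl, in which Cre driven by the granule neuron progenitor gene Math1 switches on SmoM2, an activated form of Smoothened. 1 library came from a tumour after standard proton irradiation and 1 from a tumour after FLASH proton irradiation, which delivers its dose at a far higher rate. The dose is 5 Gy in the labels of the samples but 10 Gy in the design text. How many mice were used, how old they were and how long after irradiation they were killed are not stated in the sources used here. PBS with EDTA was perfused through each mouse before collagenase-II and DNase digestion of the tumour and passage through a mesh of 100 μm pores. With 1 library per group there are no replicates, so no test was possible, and every interval is at 95% and covers counting error only.

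Red cells are made in the bone marrow, where erythroblasts fill with haemoglobin, stop dividing, expel the nucleus and leave as reticulocytes. A reticulocyte clears its mitochondria and ribosomes and loses its RNA within days, so a young red cell in blood still carries messenger RNA but makes no more. Adult haemoglobin joins alpha chains, encoded in the mouse by Hba-a1 and Hba-a2, with beta chains, encoded by Hbb-bs and Hbb-bt, around haem, the iron-holding ring whose synthesis starts with the enzyme ALAS2. The embryonic chains Hba-x, Hbb-y and Hbb-bh1 are used in the primitive red cells of the early embryo.

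The promoters of the chosen genes are shown because these genes define the members, together with that of Alas2, an erythroid gene that the rule did not use. The windows hold the 200 bases before the RefSeq start, 5′ to 3′ on the strand of the gene, on GRCm38.p6, and GENCODE begins some transcripts of these genes further upstream, inside the window. They lie at chr11:32296292-32296491 (plus strand, Hba-a2), chr7:103827929-103828128 (minus strand, Hbb-bs), chr7:103813924-103814123 (minus strand, Hbb-bt) and chrX:150547217-150547416 (plus strand, Alas2). The window of Hba-a1, at chr11:32283472-32283671, is not printed because it was identical to that of Hba-a2 over 197 of 197 bases at an offset of 3 bases. Capitals mark, on either strand, the GATA motif (GATAA), the CACCC box (CACCC), the CCAAT box (CCAAT) and the TATA box (TATAA).
Hba-a2: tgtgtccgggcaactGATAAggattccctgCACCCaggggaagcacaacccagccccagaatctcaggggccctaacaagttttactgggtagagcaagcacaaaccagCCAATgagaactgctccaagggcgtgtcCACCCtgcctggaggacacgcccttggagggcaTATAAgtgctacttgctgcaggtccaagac
Hbb-bs: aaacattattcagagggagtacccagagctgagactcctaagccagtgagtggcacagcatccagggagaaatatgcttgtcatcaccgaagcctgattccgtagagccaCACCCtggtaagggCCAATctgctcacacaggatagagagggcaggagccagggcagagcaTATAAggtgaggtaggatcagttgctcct
Hbb-bt: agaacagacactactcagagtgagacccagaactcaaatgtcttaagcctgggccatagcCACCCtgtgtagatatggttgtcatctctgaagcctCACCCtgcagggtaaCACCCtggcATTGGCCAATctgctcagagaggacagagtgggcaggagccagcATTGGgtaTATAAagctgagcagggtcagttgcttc
Alas2: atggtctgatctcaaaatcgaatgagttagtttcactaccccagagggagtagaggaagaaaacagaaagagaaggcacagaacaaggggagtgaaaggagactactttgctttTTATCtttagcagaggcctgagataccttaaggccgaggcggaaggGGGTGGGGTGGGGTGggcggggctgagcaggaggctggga

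All 4 motifs were found in both alpha windows, as in 158 (0.481%) of 32851 RefSeq promoters of the same length. GATAA, the core letters bound by the erythroid factor GATA1, lay 185 bases before the start of Hba-a2 and, on the opposite strand, 86 bases before that of Alas2, and it was in 18.1% of all windows. CACCC, letters recognised by Krüppel-like factors such as the erythroid KLF1, was in the windows of the 4 haemoglobin genes and of Alas2 and in 45.5% of all windows. CCAAT (29.3% of all windows) and TATAA (18.5%) were in the windows of the 4 haemoglobin genes, with TATAA between 27 and 30 bases before the start. The beta windows were identical at 118 of 199 bases (59.3%) and did not hold the letters GATAA. These are matches of letters in a window and no record of binding.

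The standard library held 190 members (1.48% of 12867 listed barcodes, interval 1.28 to 1.70) and the FLASH library 226 (1.58% of 14269, interval 1.39 to 1.80). The intervals overlap. The libraries held 55532202 and 63178900 UMIs, of which members took 1.52% and 1.53%. Another barcode of each library passed the haemoglobin minimum but had more than 10% mitochondrial UMIs. A minimum of 500 detected genes would have removed 168 members (88.4%) after standard and 195 (86.3%) after FLASH, against 16.4% and 10.4% of the other barcodes, which are all listed barcodes under both limits. Both libraries listed 46 barcode sequences in common, and 0 standard and 2 FLASH members were among them.

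**Figure D1:**
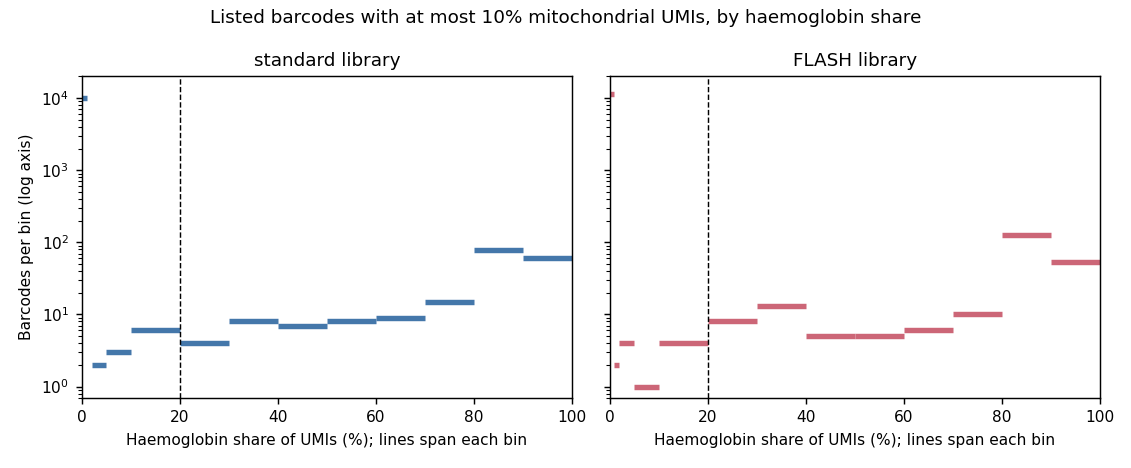
Number of listed barcodes (vertical log axis) by the share of UMIs from the 4 haemoglobin genes (horizontal axis, %), for barcodes with at most 10% mitochondrial UMIs; each line spans a bin, and bins differ in width. The dashed line is the 20% minimum, and 11 barcodes of each library lie between 1 and 20%.

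Values of the rule itself separate members from the rest with few barcodes between. The 3 barcodes just under the minimum had 19.6% haemoglobin each after standard and 13.3, 15.2 and 16.0% after FLASH, and the 3 just over it had 22.9, 23.9 and 26.7% and 20.4, 22.2 and 23.9%. In the standard library 9574 of the 10092 other barcodes, and in the FLASH library 11153 of 11540, had under 0.1%. Members carried 98.3% of all haemoglobin UMIs of the standard library and 98.1% of those of the FLASH library. At least 1 haemoglobin UMI was found in 29.4% and 27.6% of the other barcodes, at a median depth of 4752 and 4898 UMIs, which came to 200.2 and 185.0 CPM (UMIs per 1000000).

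Most members formed a compact group with a very high share. The median share was 88.2% after standard and 87.6% after FLASH, and 139 (73.2%) and 179 (79.2%) members had at least 80%. Members had a median of 4654 UMIs (502 to 12932) after standard and 4098 (529 to 16184) after FLASH, close to the depth of the other barcodes. Outside haemoglobin they held a median of 484 and 471 UMIs and in total 224 and 214 detected genes, against 2072 and 2095 genes in the other barcodes. Their mitochondrial share was 0.539% and 0.651% of all UMIs, against 3.61% and 3.73% in the other barcodes, but 3.78% and 4.43% of the UMIs outside haemoglobin.

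A smaller group lay between 20 and 50% haemoglobin. It held 19 standard members with a median of 3277 UMIs and 1186 genes and 26 FLASH members with 7564 UMIs and 2052 genes. Outside haemoglobin they held a median of 2208 and 4718 UMIs, against 495 and 429 in members with at least 80%, and they supplied 39.9% of all members' UMIs outside haemoglobin after standard and 56.7% after FLASH. The 12 tumour lineage markers include Atoh1, Zic1 and Neurod1 of the granule neuron lineage. Over all members, Stmn1 (1494 and 1890.5 CPM of the UMIs outside haemoglobin) and Nnat (994 and 954) were the highest of the 12. Atoh1 was at 61.8 and 68.1 CPM. At least 3 UMIs of the 12 markers were found in 16 of the 19 and 22 of the 26, against 25 of 139 and 31 of 179 members with at least 80% haemoglobin. These counts also rise with the UMIs outside haemoglobin in a barcode. With every member thinned to 200 such UMIs, at least 1 marker UMI was found in 63.2% (interval 38.4 to 83.7) and 76.9% (56.4 to 91.0) of members with 20 to 50% and in 37.2% (29.1 to 45.9) and 46.3% (38.7 to 54.0) of those with at least 80%, against 69.1% and 68.8% of the other barcodes. The intervals of the ranges overlap after standard and do not overlap after FLASH. Another 32 and 21 members lay between 50 and 80%. No doublet caller was run, so droplets that hold a red cell and another cell were not removed, and their part in these values was not tested. Some values below are therefore also given for members with at least 80% haemoglobin, and those without a stated range are for all members.

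**Figure D2:**
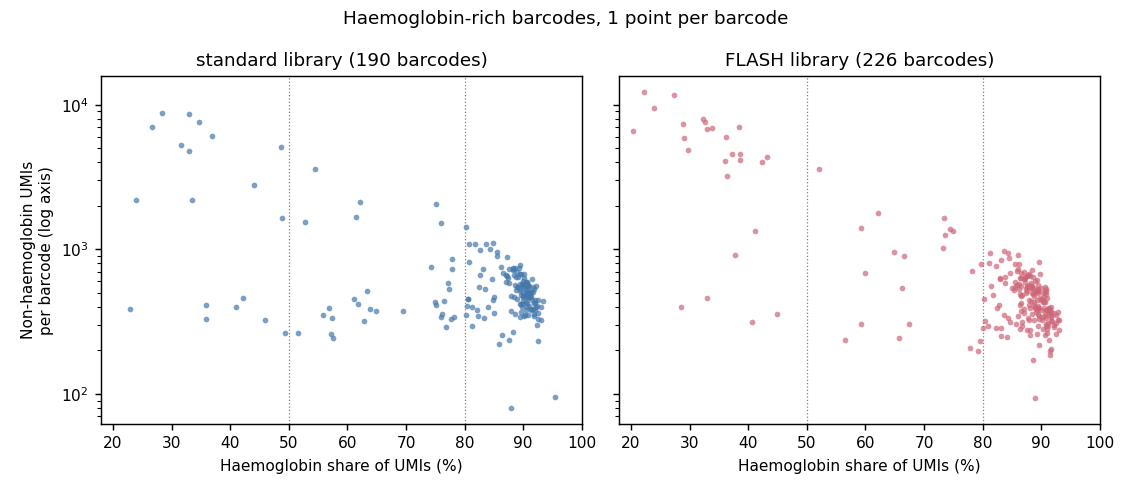
UMIs outside haemoglobin per member (vertical log axis) against the haemoglobin share of the barcode (horizontal axis, %), 1 point per member, standard library left and FLASH library right. Dotted lines at 50 and 80% bound the 3 ranges; members with at least 80% had a median of 495 and 429 such UMIs, and the deepest points, with up to 8706 and 12180, lie under 50%.

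Beta chain RNA outnumbered alpha chain RNA in the members of both libraries. Hba-a1 (chromosome 11, 32283511 to 32284465, plus strand, mm10) gave 19.2% of the members' haemoglobin UMIs after standard and 18.3% after FLASH. Hba-a2 (chromosome 11, 32296489 to 32297298, plus strand) gave 13.4% and 12.7%. Hbb-bs (chromosome 7, 103826534 to 103828096, minus strand), an adult beta chain gene, gave 58.3% and 60.0%. Hbb-bt (chromosome 7, 103812524 to 103813996, minus strand) gave 61872 of 681770 haemoglobin UMIs (9.08%) after standard and 65687 of 729861 after FLASH. Each gene has 3 exons in GENCODE. Beta UMIs were 2.07 times the alpha UMIs after standard and 2.23 times after FLASH, and 2.11 and 2.25 times among members with at least 80%. UMI counts of different genes also depend on how well each is captured, so the ratio is not that of the molecules or chains in the cell.

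Among members with at least 80% haemoglobin the alpha share of haemoglobin UMIs had a median of 32.6% (15.2 to 45.6) after standard and 30.5% (21.7 to 47.0) after FLASH. The ranges overlap almost wholly. Hba-a1 made up a median of 58.7% and 58.9% of the alpha UMIs, and Hbb-bs 86.2% (77.3 to 98.8) and 87.3% (75.5 to 97.9) of the beta UMIs. Across these barcodes, Hbb-bt took a larger share of the beta UMIs where more UMIs were counted in all (Spearman's rho 0.64 over 139 and 0.57 over 179 barcodes, which share a library and its depth). Its rho with the summed share of the haem, membrane, enzyme and maturation lists described below was 0.69 and 0.57. In every range of haemoglobin share the summed Hbb-bt share was lower than that of Hbb-bs, at 4.98 to 9.58% of haemoglobin UMIs after standard and 7.22 to 9.19% after FLASH.

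The split between the copies is uncertain where they share sequence. The coding sequences of Hba-a1 and Hba-a2 differ at 1 of 429 bases and those of Hbb-bs and Hbb-bt at 1 of 444. Of the windows of 90 bases in each transcript, 58.9% of Hba-a1 and 77.2% of Hba-a2 were also found in the other alpha transcript, and 63.3% of Hbb-bs and 55.5% of Hbb-bt in the other beta transcript. Of the windows that reach or pass the end of the coding sequence, 33 of 75 of Hba-a1 were also in Hba-a2 and 0 of 132 of Hbb-bs in Hbb-bt. Which part of a transcript the reads came from was not examined. A read from a shared stretch cannot be assigned to a copy. How such reads were counted was not examined either, so the alpha and beta totals may also depend on it.

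Other globin genes were nearly silent. Hbq1a and Hbq1b, near-identical theta globin copies, had 10 and 9 UMIs in standard members and 5 and 10 in FLASH members, against 0 and 0 and 1 and 0 in all other barcodes. The embryonic genes Hba-x, Hbb-y and Hbb-bh2 had 0 UMIs in the members of both libraries, and Hbb-bh1 had 1 and 0.

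For genes outside haemoglobin, the 4 haemoglobin genes were removed from every total, and UMIs summed over barcodes were expressed as CPM of the remaining sum. Of 2969 genes with a mean of at least 50 CPM over both groups and libraries, 83 (2.80%) were at least 2 times higher in members than in the other barcodes of both libraries, and 33 (1.11%) at least 2 times lower. Among members with at least 80% haemoglobin these counts were 122 (4.89%) and 703 (28.2%) of 2494. The median log2 ratio of the 2969 genes was -0.45 after standard and -0.28 after FLASH, so most genes were somewhat lower in members. A gene scarce in the other barcodes can pass that minimum only through a high level in members, so the lists below are counted without it and over all their genes found in the files. A listed gene is called higher where the members of each library held at least 3 of its UMIs and its level was at least 2 times that of the other barcodes in both, as for 133 (0.616%) of the 21604 genes with any UMI. A gene scarce in the other barcodes meets this rule as soon as members hold 3 UMIs, so the counts are descriptions.

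The haem synthesis list summed to 7447 and 5582 CPM in members against 189 and 194 in the other barcodes. Of the 11 listed genes 3 were called higher, and 5 had under 3 UMIs in the members of at least 1 library. Alas2 (chromosome X, 150547375 to 150570638, plus strand), the erythroid form of the enzyme that starts haem synthesis, stood at 6002 CPM (interval 5631 to 6392) in standard members and 4202 CPM (3944 to 4473) in FLASH members, against 0.411 and 0.272 CPM in the other barcodes. It was found in 167 of 190 and 207 of 226 members, and in 136 of 139 and 170 of 179 with at least 80% haemoglobin, where it reached 11838 and 10244 CPM. The other barcodes held 21 and 16 Alas2 UMIs in all. With every barcode thinned to 200 UMIs outside haemoglobin (2 standard and 5 FLASH members were shallower and left out), Alas2 was found in 68.6% and 68.3% of members and in 0.0198% and 0% of the other barcodes. Fech, which inserts iron into the ring, was at 741 and 664 CPM against 8.80 and 8.91, and Slc25a37 (mitoferrin-1), which carries iron into mitochondria, at 605 and 566 CPM against 13.9 and 13.2. Alad, Uros, Urod, Cpox and Ppox, enzymes of the steps in between, had 0 to 6 UMIs each in standard members and 1 to 9 in FLASH members.

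Membrane and skeleton genes of the red cell were present at low counts. Slc4a1, the band 3 anion exchanger, had 26 UMIs in standard members and 15 in FLASH members, against 2 and 0 in all other barcodes. In the FLASH library it was 1254-fold higher when 3 counts in the other barcodes were taken as the floor. That value leaves out the counting error of its 15 UMIs. Epb41, the 4.1 skeleton protein that other cells also use, was at 1414 and 1039 CPM against 125 and 120.0. Of the 18 listed genes 6 were called higher, while 5 had 0 UMIs in standard members and 10 in FLASH members. The summed list was at 2130.5 and 1503 CPM against 188 and 180.2.

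Cytosolic enzymes and proteins of the red cell were high. Of 8 listed genes 7 matched the files' symbols, 5 were called higher and 2 had under 3 UMIs in the members of at least 1 library. The list summed to 8750.3 and 7162 CPM against 88.4 and 88.7. Bpgm, which makes the 2,3-bisphosphoglycerate that lowers the oxygen affinity of haemoglobin, was at 4212 CPM (3901 to 4539.8) and 2887 CPM (2674 to 3113), against 26.2 and 27.3. Isg20, an exonuclease that cuts RNA, was at 1297 and 1248 CPM against 1.84 and 2.31. Car2, a carbonic anhydrase, reached 371 and 375 CPM, and Blvrb, biliverdin reductase B, 389 and 358 CPM. Car1 had 0 UMIs in members and other barcodes of both libraries. In members with at least 80% haemoglobin, the summed list was 204 and 200.5 times the level in the other barcodes.

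Antioxidant genes, which protect haemoglobin from oxidation, were higher too. Of the 6 listed genes 5 were called higher, with a median log2 ratio of 1.94 and 1.71 over the list. Gpx1, glutathione peroxidase 1, was at 2946 and 3104 CPM against 114 and 117. Prdx2, the peroxiredoxin abundant in red cells, was at 2044 and 2359 CPM against 943 and 941. Sod1 was the exception, with 67.9 and 80.9 CPM against 87.9 and 89.9, and in members with at least 80% haemoglobin it was at 27.2 and 12.2 CPM.

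Genes linked to maturation and organelle clearance summed to 16710.2 and 14459 CPM in members against 3009 and 3200.1 in the other barcodes. Of 16 listed genes 9 were called higher, and 3 had under 3 UMIs in the members of at least 1 library. Bnip3l, the receptor through which reticulocytes dispose of mitochondria, was at 1803 and 1311 CPM against 175 and 179. Mkrn1, a ubiquitin ligase, was at 4564 and 3657 CPM against 89.2 and 92.1. Ube2l6, an enzyme that loads the ubiquitin-like protein ISG15, was at 1383 and 1099 CPM against 3.15 and 2.58. Ube2o, a ubiquitin enzyme that helps reticulocytes remove ribosomes, was at 500.2 and 307 CPM against 41.2 and 42.6. Ube2b, Xpo7 and Ubac1 were among the listed genes that did not reach 2 times in both libraries.

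Iron storage genes stood higher. Of the 8 listed iron genes 2 were called higher, and 5 had under 3 UMIs in the members of at least 1 library. Ftl1 and Fth1, the ferritin chains, were at 6842 and 6493 CPM and at 3125 and 2780.3 CPM, against 1849.9 and 1966 and 1177 and 1256 in the other barcodes. Fam210b was at 179 and 204 CPM against 123 and 124. Tfrc, the transferrin receptor through which erythroblasts take up iron, had 2 and 6 UMIs in members, and Slc40a1, Tfr2 and Steap3 had 0.

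Few UMIs were found for the transcription factors of the erythroid program and for progenitor genes. Gata1 and Gfi1b had 0 UMIs in the members of both libraries, Klf1 had 0 and 1, Tal1 1 and 0, Epor, the erythropoietin receptor, 0 and 0, and Hemgn 2 and 4. The interval of a count of 0 in these sums reaches 22.8 CPM after standard and 15.7 CPM after FLASH, so low levels were not detectable at this depth. Lmo2, the 1 of 12 regulators called higher, was at 67.9 and 134 CPM in members with at least 80% haemoglobin against 12.5 and 12.9 in the other barcodes, from 5 and 11 UMIs. The progenitor genes Gata2 and Cpa3 had 0 UMIs, Kit 0 and 1, and Myb 4 and 0. The 6 cycling genes together were at 661 and 988 CPM in members, 570.2 and 512 CPM in those with at least 80% haemoglobin and 1434 and 1489 CPM in the other barcodes.

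**Figure D3:**
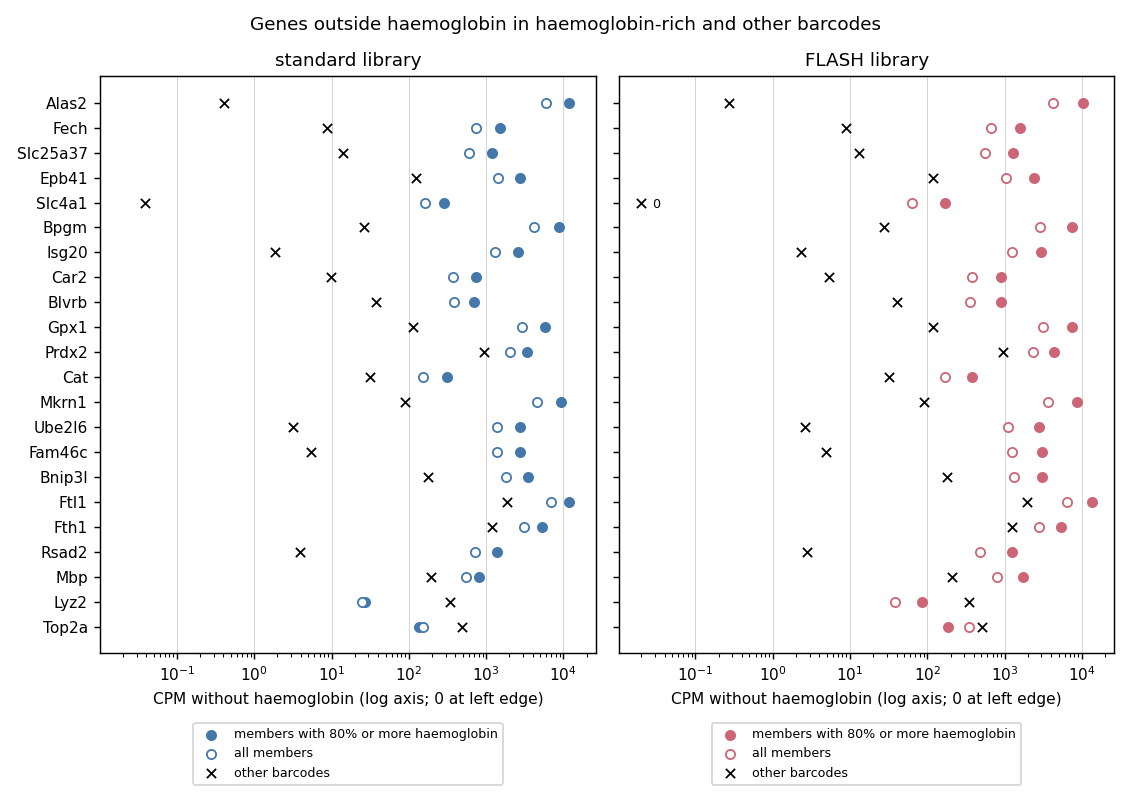
Level of named genes (horizontal log axis, CPM with haemoglobin removed from the totals) in members with at least 80% haemoglobin (filled), all members (open) and other barcodes (crosses), standard library left and FLASH library right; 0 marks a gene with no UMI in a group. Alas2 runs from 0.411 to 11838 CPM after standard and from 0.272 to 10244 CPM after FLASH, while Lyz2 and Top2a are lower in members.

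Genes in and outside the lists were ranked by their ratio over the other barcodes. The ranking took genes with at least 30 UMIs in members that were found in at least 10 members. This minimum uses members alone, so a gene scarce in the other barcodes ranks high by construction. Genes of the ranking outside the lists are described here. Fam46c, a poly(A) polymerase gene, was at 1371 and 1260.3 CPM against 5.44 and 4.89. Rec114, known for its role in meiotic recombination, had 37 and 34 UMIs in members against 3 and 5 in all other barcodes. Tspo2, an erythroid relative of the translocator protein gene, had 16 and 24 against 1 and 2. Isca1, an iron-sulphur cluster assembly gene, Ucp2, a mitochondrial carrier gene, and March2, a ubiquitin ligase gene, were at 531 and 375 CPM, 963 and 694 CPM and 827 and 626 CPM in members.

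Rsad2 (viperin) and Isg15, genes known for their response to interferon, were on the same ranking. Rsad2 was at 710.2 CPM (586 to 852) in standard members and 477 CPM (393 to 574) in FLASH members, against 3.95 and 2.77 in the other barcodes. It was found in 49 and 57 members, and the member with the most UMIs held 10.4% and 6.25% of them. Isg15 was at 185 and 141 CPM against 6.71 and 8.17, but 1 member of each library held 15 of its 30 and 21 of its 33 UMIs. A single member thus held a larger share of the Isg15 UMIs than of the Rsad2 UMIs in each library.

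The gene model with the most UMIs outside haemoglobin was Gm42418 (chromosome 17, 39846958 to 39848788, plus strand), a model that overlaps AY036118 (39847113 to 39848035, minus strand) and lies over ribosomal RNA sequence. Gm42418 was found in every member and took 215170.1 CPM in standard members and 152898 CPM in FLASH members, against 58371 and 52610.3 in the other barcodes. Reads of the overlapping models may not be told apart. Gm42418, AY036118 and Lars2 together took 36.3% and 33.3% of the UMIs outside haemoglobin in members with at least 80%, 7.83% and 5.98% in those with 20 to 50%, and 6.21% and 5.60% in the other barcodes. In the 1653 and 1205 other barcodes with under 500 genes, which had a median of 625 and 644 such UMIs, they took 18.4% and 15.1%. Malat1, a long RNA that stays in the nucleus, was lower in members with at least 80% haemoglobin, at 6380.4 and 5006 CPM against 17125 and 15557.

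Genes of other cell types were mostly low in members. Neutrophil and platelet genes (6 each) had 0 UMIs in the members of both libraries, T and B cell genes 1 and 0, and endothelial genes 1 and 7. In the other barcodes these lists were at 36.4 and 66.6, 0.509 and 0.764, 6.59 and 6.57, and 51.8 and 66.2 CPM. Platelet and T and B cell genes were so scarce there that counts near 0 in members cannot show a lower level. The summed list of 11 myeloid genes, which holds C1qa, Lyz2 and Tyrobp, was at 210.0 and 179 CPM in members and 1414 and 1358 in the other barcodes. Tumour lineage genes together were at 5014 and 5407 CPM in members and at 2769 and 3155 CPM in those with at least 80% haemoglobin, against 6733 and 6686 CPM in the other barcodes, and 0 of the 12 listed genes were called higher.

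Myelin genes were the exception. Mbp, myelin basic protein, was at 543 CPM (436 to 669.5) in standard members and 805 CPM (694 to 928) in FLASH members, against 192 and 207 in the other barcodes, and at 801 and 1754 CPM in members with at least 80% haemoglobin. Mobp was at 67.9 and 89.4 CPM against 27.6 and 31.1, from 11 and 21 UMIs. Other barcodes with under 500 genes stood above the sum of all members in Mbp and Mobp, with Mbp at 1085 and 1335 CPM. For Mbp they stood below members with at least 80% haemoglobin after FLASH (1754 CPM) but not after standard (801 CPM). The summed oligodendrocyte list was at 2104 and 2717 CPM in those barcodes and at 902 and 1069 CPM in members, and the part of free or fragment-bound RNA in these values was not tested.

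Red cell lists had higher CPM in ranges of higher haemoglobin share. The ranges were cut on the share that the rule used. UMIs outside haemoglobin both lower that share and divide these CPM, so the order partly follows from the construction. Median Alas2 UMIs per member were 1, 1 and 6 after standard and 3.50, 2 and 4 after FLASH, from lowest to highest range. The summed haem synthesis list was at 773 and 1157 CPM in members with 20 to 50% haemoglobin, 3261 and 3603 CPM with 50 to 80%, and 14648 and 13228 CPM with at least 80%. The red cell enzyme list followed the same order, from 325 and 1157 CPM through 2965 and 3451 CPM to 18001 and 17783 CPM. Other barcodes with under 500 genes were at 175 and 203 CPM for haem synthesis and at 129 and 131 CPM for the enzymes, near the other barcodes as a whole (189 and 194, and 88.4 and 88.7).

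**Figure D4:**
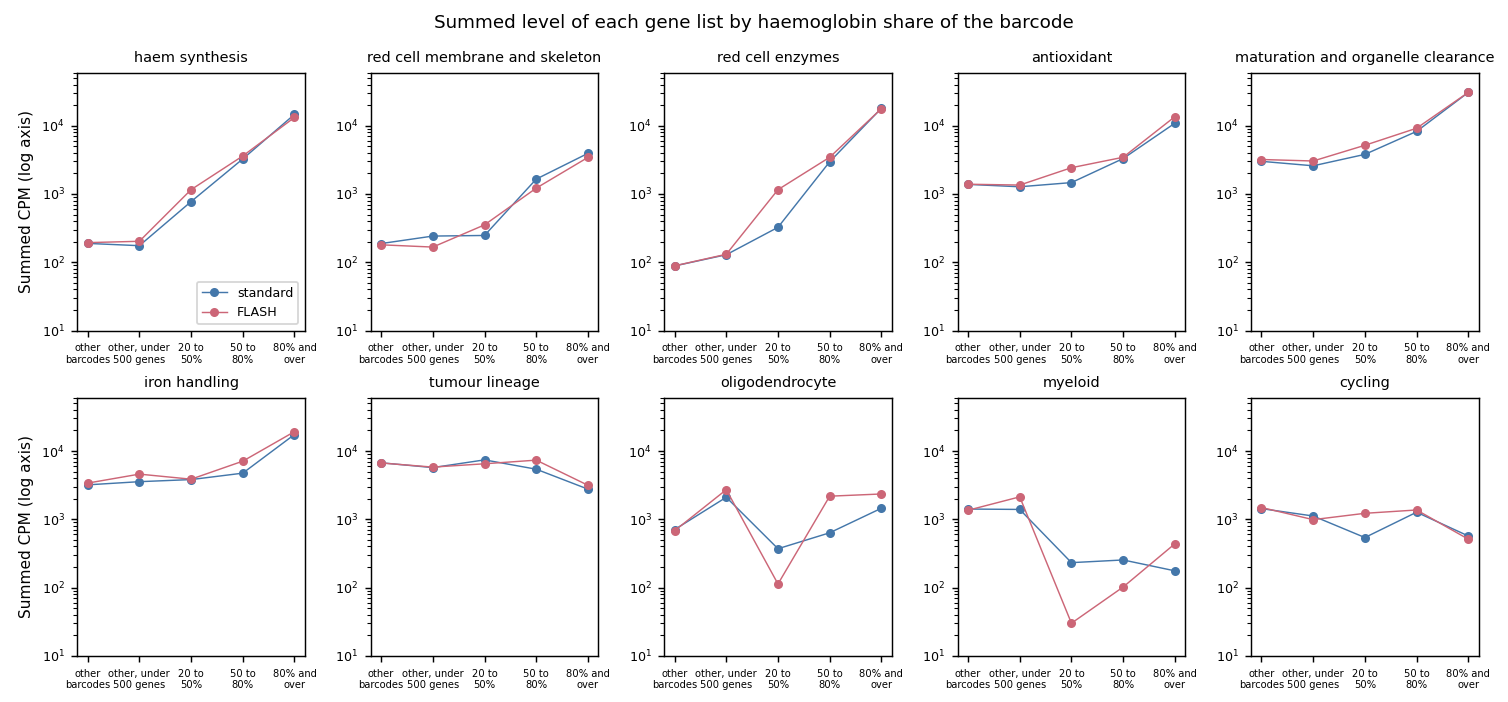
Summed level of 10 gene lists (vertical log axis, CPM with haemoglobin removed) in other barcodes, other barcodes with under 500 genes, and members by range of haemoglobin share; blue is the standard library and red the FLASH library. The 6 red cell lists are highest at 80% and over in both libraries, the tumour lineage list is lowest there, and the oligodendrocyte list is highest in other barcodes with under 500 genes. UMIs outside haemoglobin enter both the ranges and the CPM, so the order of the ranges partly follows from the construction.

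Members with at least 80% haemoglobin varied among themselves. The haem, membrane, enzyme and maturation lists summed to a median of 5.58% of the UMIs outside haemoglobin after standard (0.214 to 17.7) and 5.64% after FLASH (0.260 to 16.3). Alas2 ranged from 0 to 20 UMIs with a median of 6 after standard and from 0 to 18 with a median of 4 after FLASH. Across these barcodes the summed share of the lists had a Spearman's rho of 0.59 and 0.52 with total UMIs, and of -0.46 and -0.37 with the share of ribosomal protein genes (139 and 179 barcodes). Shares of the same total tend to oppose each other by construction, and these correlations are descriptions. Ribosomal protein genes took a median of 8.58% (2.93 to 19.4) and 10.2% (3.92 to 23.9) of the UMIs outside haemoglobin, against 16.8% and 17.1% in the other barcodes.

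FLASH and standard members were close in most genes. Of 1004 genes with at least 50 UMIs in the members of both libraries together, 120 (12.0%) were at least 1.5 times higher after FLASH and 39 (3.88%) at least 1.5 times lower, with a median log2 ratio of 0.16. With Gm42418, AY036118 and Lars2 also removed from the totals the counts were 70 and 64 and the median log2 ratio was 0.04, so the higher calls went from 75.5% to 52.2% of all calls. Among members with at least 80% haemoglobin, 20 (7.30%) of 274 genes were higher and 10 (3.65%) lower, with a median of 0.11, and with the same removal 13 and 13, with a median of 0.05. The FLASH library had more of its members' RNA from the range of 20 to 50% haemoglobin, and its part in the counts over all members was not tested.

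Of the red cell genes over 50 UMIs, most stayed within 1.5 times. Alas2 had a log2 ratio of FLASH over standard of -0.51 (interval -0.64 to -0.39) in all members and -0.21 among those with at least 80% haemoglobin. Bpgm had -0.54 (-0.70 to -0.39) and -0.27. Gpx1 had 0.08 (-0.09 to 0.25) and 0.39. In the haem, membrane, enzyme, antioxidant and iron lists 0 of 3, 2, 5, 5 and 3 genes were past 1.5 times, and in the maturation list 1 of 9 was lower (Ube2o, -0.71, and -0.29 among members with at least 80%). The 80 ribosomal protein genes measured had a median log2 ratio of 0.30 in all members and, over 75 genes, of 0.24 in those with at least 80%, or 0.17 and 0.17 without Gm42418, AY036118 and Lars2 in the totals.

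Among the genes with the highest ratios over all members, H2afx, Mab21l2 and Nhp2 had lower ratios among members with at least 80% haemoglobin. H2afx, a histone variant gene, had 8 and 47 UMIs and a log2 ratio of 1.95 (0.92 to 3.31), with 36.2% of the FLASH UMIs in 1 member, and 0.29 among members with at least 80%; in the range of 20 to 50% it was at 30.9 and 278 CPM. Mab21l2 had 1.28 and -0.16, and Nhp2 1.26 and 0.05. Eloc, which encodes elongin C, had 1.32 (0.48 to 2.32) and 1.36, from 14 and 52 UMIs in 12 and 35 members. At the other end, Iscu, the scaffold gene of iron-sulphur cluster assembly, had a log2 ratio of -1.15 (-1.90 to -0.44) and -1.06, from 43 and 28 UMIs. With every member thinned to 200 UMIs outside haemoglobin, its ratio was -0.09 (-1.53 to 1.39), from 9 and 10 UMIs, and so no longer past 1.5 times, and that of Cntn2 was -0.23 from 4 and 4. Cntn2, Kif5c, Spag9 and Polr2j had -1.11, -1.08, -0.90 and -0.89 over all members and -0.34, -0.72, -0.89 and -0.60 among those with at least 80% haemoglobin.

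**Figure D5:**
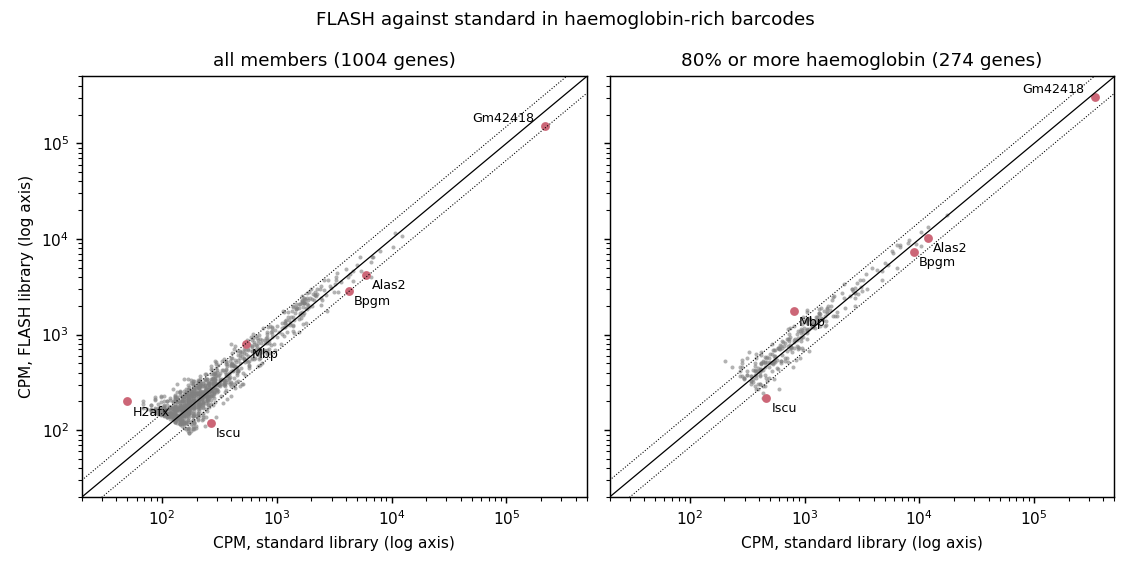
Level after FLASH (vertical log axis, CPM with haemoglobin removed) against that after standard (horizontal log axis) for genes with at least 50 UMIs, 1 point per gene, in all members (left, 1004 genes) and in members with at least 80% haemoglobin (right, 274 genes). The solid line is equality and the dotted lines are 1.5 times; Iscu lies below the lower line in both panels, though not after thinning (-0.09), and Mbp above the upper line on the right.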

How the data were processed

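The authors deposited 1 matrix of raw UMI counts per library, which Cell Ranger 6.1.2 produced, per the file headers; the genome was mm10, per the submitters' processing notes, and the libraries were V3 of 10x Genomics, per the labels' protocols. The values are whole counts and were not normalised. The members, gene lists and comparisons were chosen with earlier results of these data known. Counts were summed over members and over other barcodes in Python 3.11.15 with numpy 2.4.6, scipy 1.17.1 and pandas 2.3.3, and CPM were taken on totals without Hba-a1, Hba-a2, Hbb-bs and Hbb-bt. Log2 ratios used 0.5 added counts. For shares the intervals are Clopper-Pearson, for CPM Poisson, and for ratios between libraries conditional binomial, all exact. A gene passed the minimum at a mean of 50 CPM over both groups and libraries, which was set after seeing the data, as was the rule for counting listed genes without it. Genes named were all members of the lists, the 25 with the highest CPM, the 25 with the highest ratio over the other barcodes (at least 30 UMIs and 10 members), and the 5 highest and 5 lowest ratios of FLASH over standard (at least 50 UMIs), leaving out haemoglobin, mitochondrial, immunoglobulin, sex-linked and ribosomal protein genes outside the lists. Some of the genes so selected are not reported here. Coordinates are from GENCODE M21 and promoters from RefSeq on GRCm38.p6, matched by symbol for 5 of 5 genes. The ratio calculation was tested on simulated data.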

Additional observations from a re-analysis of the deposited data

How the results depend on the processing

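Without a threshold of a test, a value counts as moved here when it left its counting interval, or a count of genes when it differed by over 1.5 times. The share of listed barcodes moved under 4 settings. After standard it was 1.08% with a minimum of 80% haemoglobin, 1.07% with at least 200 detected genes, 0.171% with at least 500, and 1.06% without members with 3 or more tumour marker UMIs. After FLASH it was 1.25, 0.925, 0.217 and 1.11%. Alpha chains were 32.1% and 30.8% of haemoglobin UMIs with the minimum of 80%, 32.5% and 30.6% with 200 genes and, after FLASH, 31.4% with 500 genes.

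The 83 genes at least 2 times higher became 32 with 500 detected genes and, with alternatives chosen after seeing the data, 136 with a mean CPM minimum of 10 and 133 with no such minimum but at least 3 UMIs in the members of each library. The 33 genes at least 2 times lower became 474 with a haemoglobin minimum of 50%, 703 with 80%, 21 with 500 detected genes, 639 without members with tumour marker UMIs, 265 after thinning, 368 with means of barcode CPM, 60 without the top barcode of each gene, 238 with the mean CPM minimum of 10, and 21 with Gm42418, AY036118 and Lars2 out of the totals, also chosen after seeing the data. Under settings where they moved, the 120 genes higher after FLASH became 32 with 50% haemoglobin, 20 with 80% and 56 with 500 genes. They became 16 without members with tumour marker UMIs, 16 after thinning and 78 with means. With the 3 genes out of the totals they became 70, and with a minimum of 10 UMIs 1063. The 39 lower genes became 6, 10, 6, 3, 64 and 592 with 50%, 80%, no tumour markers, thinning, the 3 genes out and 10 UMIs. The number of genes measured also changed with the setting, so these counts are not shares. With 80% haemoglobin the 20 higher after FLASH were 7.30% of 274 genes, against 12.0% of 1004 over all members. The 703 lower than in the other barcodes were 28.2% of 2494, against 1.11% of 2969.

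For 46 genes compared with the other barcodes, 292 of 598 values, of all 46 genes, moved without a change of sign. Another 2 changed sign, Mbp at -1.16 and Mobp at -1.49 on the log2 scale with 500 detected genes. Of the 598 values, 22 of 18 genes fell under a log2 ratio of 1. For 16 genes compared between libraries, 54 of 207 values, of 13 genes, moved, not counting 5 that changed sign in genes past 1.5 times. In all, 14 values, of 7 genes, changed sign. Of these, 5 were of genes past 1.5 times over all members. H2afx was at -0.07 and Nhp2 at -0.36 without members with tumour marker UMIs, and Mab21l2 at -0.07 and -0.16 with 50% and 80% haemoglobin and -0.23 after thinning. The other 9 were of genes within 1.5 times: Ftl1 at 0.20 to 0.29 under 5 settings, Gpx1 at -0.66 and Mbp at -2.21 with 500 detected genes, Gpx1 at -0.05 with the 3 genes out of the totals, and Bpgm at 0.04 after thinning. The cause of these moves was not tested. No paired analysis was possible because each group has 1 library. Depth limits single genes in single members, since a member held few UMIs outside haemoglobin.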
